A study of Mus musculus with 7 samples.

Results

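The subject here is a set of 35 interferon-stimulated genes and their regulators in the retinal pigment epithelium (RPE) of Mfrp rd6 mutant and wild-type mice. The genes were taken from a list, and each was read from its brightest probe set among those annotated to that symbol alone. Of the 35 listed genes, 32 had such a probe set, out of 19938 genes measured in all. Isg15 and Gbp2 lay only on probe sets shared with another gene and Ifi44 had no annotated probe set, so these 3 were left out. A gene's values are log2 signals after RMA, the authors' normalization, and are compared only between arrays.

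The RPE is the pigmented cell sheet behind the photoreceptors, which it feeds and whose shed tips it engulfs. Each RNA sample was hybridised to 1 whole-transcript array, with 3 samples from Mfrp rd6 mice and 4 from wild-type mice, both groups on the C57Bl/6J background. Mfrp encodes a membrane protein of the RPE, and the recessive rd6 allele causes a slow retinal degeneration. Ages are stated in 2 conflicting forms. By the age entry of each sample, the mutants were 12 weeks and the controls 8 weeks old, and genotype then cannot be told apart from age. By the growth protocol, 12 weeks applies to Mfrp rd6 replicate 1 alone and 8 weeks to the other samples. The cells were shaken loose from eyecups without cornea and lens, so that other cells of the eyecup can come along. It is not stated whether replicates were separate animals, and the p-values cover the variation among these arrays, part of which may be technical.

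Interferons are cytokines, and those of type I and type III are released by cells that sense viral nucleic acid. Type I and type III interferons act through JAK kinases on Stat2 and Irf9, whose complex binds the interferon-stimulated response element (ISRE) in the promoters of antiviral genes. Interferon gamma acts through STAT dimers that bind the gamma-activated site (GAS), among others in the promoters of Irf1 and Irf8, and both arms raise the immunoproteasome and the guanylate-binding proteins. In the retina, microglia, vascular cells and the RPE can all mount this response.

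Promoter sequences of RefSeq (GRCm38.p6, 250 bases before to 50 bases after the gene start) were matched for 24 of the 32 measured genes and searched on both strands for the ISRE core, which is GAAA followed after any 2 bases by another GAAA (TTTC and TTTC on the opposite strand), and the GAS core TTCNNNGAA, which reads the same on both strands. Overlapping matches were kept. The 24 genes have 29 listed promoters. An ISRE core lay in 10 of the 29 (34.5%), against 3.44% of all 32851 promoters, and a GAS core in 7 of the 29 (24.1%), against 8.3% of all. Counted by gene, with a match in any of its promoters, these were 10 of the 24 genes (41.7%), against 3.99% of all 27025 genes in the table, and 7 of the 24 (29.2%), against 9.55%. The 10 genes with an ISRE core were Ifih1, Gbp3, Ddx58, Oas3, Oas1a, Bst2, Stat2, Rsad2, Ifit3 and Ifit1, and the 7 with a GAS core were Oas1a, Bst2, Irf8, Irf1, Ifi35, Psmb8 and Ifit2. Parp9, Parp14, Mx1, Mx2, Oas2, Dhx58, Usp18 and Rtp4 had no entry. A match describes the letters in this window and shows no binding.

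The promoters of Rsad2, Irf8, Gbp3 and Ifih1 are shown because these hold a core and were among the genes with the largest positive or negative values below. They are written 5′ to 3′ along the gene, with the cores in capitals: an ISRE core in Rsad2 (chr12:26456403-26456702, minus strand), a pair of GAS cores in Irf8 (chr8:120736108-120736407, plus strand), overlapping ISRE cores in Gbp3 (chr3:142559794-142560093, plus strand) and an ISRE core downstream of the start in Ifih1 (chr2:62646206-62646505, minus strand).
Rsad2: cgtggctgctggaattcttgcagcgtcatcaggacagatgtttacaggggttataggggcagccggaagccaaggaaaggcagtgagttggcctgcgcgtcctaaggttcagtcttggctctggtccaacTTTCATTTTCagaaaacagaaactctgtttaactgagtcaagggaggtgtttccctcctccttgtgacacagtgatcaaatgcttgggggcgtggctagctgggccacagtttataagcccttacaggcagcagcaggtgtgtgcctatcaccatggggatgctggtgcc
Irf8: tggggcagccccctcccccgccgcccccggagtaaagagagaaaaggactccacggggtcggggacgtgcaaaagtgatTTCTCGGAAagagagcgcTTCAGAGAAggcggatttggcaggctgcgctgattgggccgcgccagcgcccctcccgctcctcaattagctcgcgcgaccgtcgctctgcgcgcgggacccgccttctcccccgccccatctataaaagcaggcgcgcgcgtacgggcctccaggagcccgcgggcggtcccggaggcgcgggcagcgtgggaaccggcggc
Gbp3: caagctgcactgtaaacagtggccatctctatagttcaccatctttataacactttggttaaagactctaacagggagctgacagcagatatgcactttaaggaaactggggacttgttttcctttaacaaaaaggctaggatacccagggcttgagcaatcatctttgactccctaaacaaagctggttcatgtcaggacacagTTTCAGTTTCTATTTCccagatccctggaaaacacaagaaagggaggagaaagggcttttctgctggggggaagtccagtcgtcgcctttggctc
Ifih1: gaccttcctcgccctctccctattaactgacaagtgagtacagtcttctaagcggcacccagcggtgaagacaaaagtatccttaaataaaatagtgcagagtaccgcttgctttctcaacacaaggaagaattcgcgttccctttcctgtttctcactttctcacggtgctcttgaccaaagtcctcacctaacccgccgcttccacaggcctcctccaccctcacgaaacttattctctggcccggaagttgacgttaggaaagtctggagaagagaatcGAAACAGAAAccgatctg

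Few of the interferon response genes differed detectably between the Mfrp rd6 and the wild-type RPE. Of the 32 measured genes 1 rose, 0 fell and 31 did not pass the test (limma with Benjamini-Hochberg adjustment over all 19938 genes, threshold 0.05). The gene that rose was Irf8, a transcription factor of myeloid cells. The share of all genes called was 2.15%, with 1.34% higher and 0.813% lower in Mfrp rd6, so the count of 1 of 32 stood near the background. At an unadjusted p under 0.05, 4 of the 32 were higher and 2 lower, beside 5.98% higher and 9.37% lower over all genes. The median log2 change of the 32 genes was 0.06 (quartiles -0.12 and 0.18), against -0.02 over all genes, and 18 had a positive and 14 a negative change (43.3% of all genes had a positive one). These log2 changes are Mfrp rd6 minus wild type.

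The precision allowed moderate changes to be bounded for most members. The 95% confidence interval of the log2 change lay within 1 in either direction for 31 of the 32 genes, Rsad2 being the exception, and within 0.5 for 22. Over all 19938 genes these counts were 19670 and 18014, so the members were bounded less tightly than the genes as a whole. The median standard error of the 32 was 0.11, against 0.09 over all genes. In bulk samples of this kind fewer cells of a type and less RNA per cell cannot be told apart, and RMA compresses changes of dim probe sets such as those of Mx2, Mx1 and Rsad2.

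**Figure D1:**
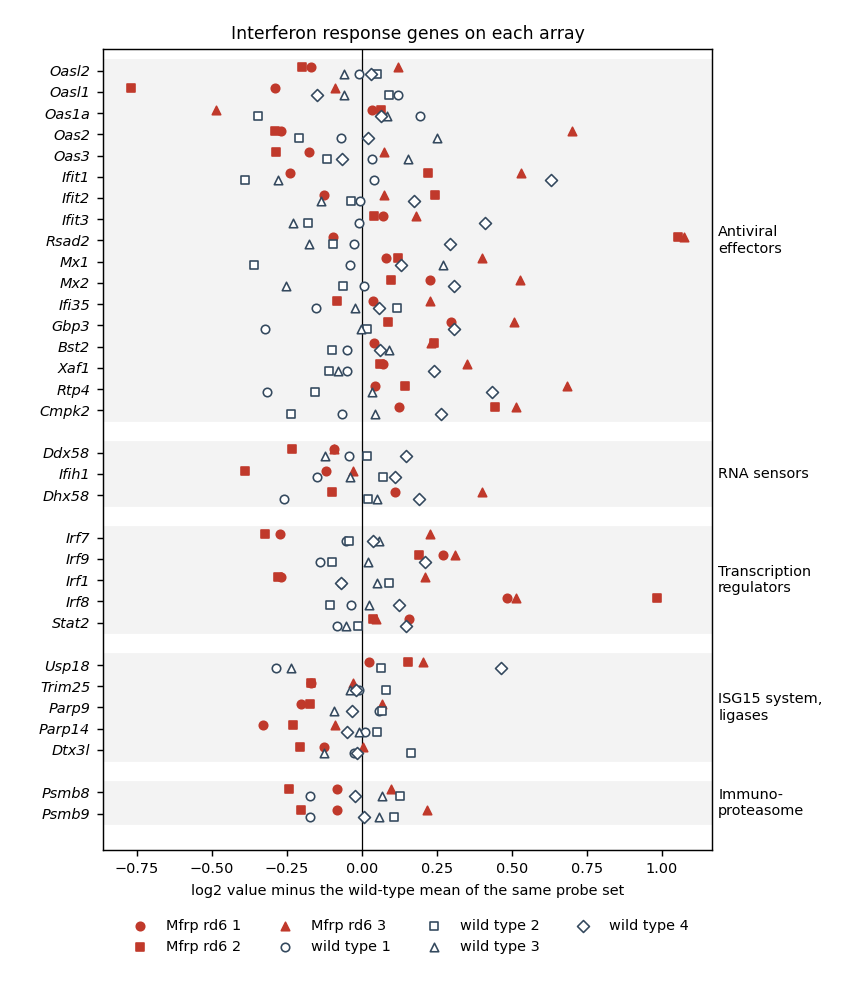
Each row is an interferon response gene and each point an array, plotted as its log2 value minus the wild-type mean of the same probe set (red filled, Mfrp rd6; open, wild type; the shape gives the replicate). Irf8 has all 3 Mfrp rd6 arrays to the right of all 4 wild-type arrays and Parp14 all 3 to the left, while the other 30 genes overlap.

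Among the transcription regulators, Irf8 read 7.18, 7.68 and 7.21 in the Mfrp rd6 samples (replicates 1, 2 and 3), against 6.66, 6.59, 6.72 and 6.82 in the wild-type samples (replicates 1 to 4). All Mfrp rd6 samples lay above all wild-type samples, with Mfrp rd6 replicate 2 the highest. The mean was 7.36 ± 0.28 (SD, n = 3) in Mfrp rd6 and 6.70 ± 0.10 (SD, n = 4) in wild type, a log2 change of 0.66 (SE 0.12, 95% interval 0.39 to 0.93) or 1.58-fold (limma, adjusted p = 0.026). Permuting the arrays over all 35 splits (exact, two-sided) also gave p = 0.0286, the smallest value this design allows. The call was lost when wild-type replicate 1 (0.65, limma adjusted p = 0.077), 2 (0.62, adjusted p = 0.068) or 3 (0.67, adjusted p = 0.0613) was left out, while the change stayed between 0.50 and 0.75 in the 15 alternatives that tested it.

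Most markers of microglia and macrophages were also higher in Mfrp rd6. Of 20 measured markers, 16 rose (80%, against 1.34% of all genes) and 0 fell. The mean over the list lay between 8.73 and 9.31 on the Mfrp rd6 arrays and between 7.08 and 7.19 on the wild-type arrays. Mfrp rd6 replicate 2, the highest for Irf8, was also the highest Mfrp rd6 array for 19 of the 20 markers. The lowest was replicate 1 for Irf8 (7.18, against 7.21 on replicate 3) but replicate 3 for 15 of the 20 markers. Within wild type, Irf8 was highest on replicate 4 (6.82), as were 4 of the 20 markers. Of 10 skeletal muscle markers 2 rose (20%), with list means of 7.93 to 8.84 in Mfrp rd6 and 6.75 to 7.89 in wild type. All 10 were higher at an unadjusted p under 0.05 in limma (5.98% of all genes), with a median log2 change of 1.338. The part of these cells in the rise of Irf8 was not tested.

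The other regulators did not pass. Irf9, the DNA-binding part of the complex that reads the ISRE, averaged 8.75 ± 0.06 in Mfrp rd6 and 8.49 ± 0.16 in wild type (change 0.26, 95% interval 0.05 to 0.47, limma adjusted p = 0.215). Its partner Stat2 averaged 8.82 ± 0.07 in Mfrp rd6 and 8.74 ± 0.10 in wild type, a difference of 0.08. Irf7, which amplifies type I interferon production, averaged 8.80 ± 0.30 in Mfrp rd6 and 8.92 ± 0.06 in wild type, and its wide spread in Mfrp rd6 came from replicate 3 at 9.15, with the other two at 8.65 and 8.60. Irf1, an early target of interferon gamma, averaged 10.07 ± 0.28 in Mfrp rd6 and 10.18 ± 0.08 in wild type, and again Mfrp rd6 replicate 3 stood apart at 10.39, with replicates 1 and 2 at 9.91 and 9.90. A dimmer probe set of Irf1 had a difference of the opposite sign, 0.14 against -0.11.

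The ISG15 system and the ligases of ubiquitin and ADP-ribose did not pass either, and 4 of the 5 measured genes had a negative change. Parp14, a mono-ADP-ribosyltransferase, read 8.02, 8.12 and 8.26 in Mfrp rd6, against 8.36, 8.40, 8.34 and 8.30 in wild type. The groups did not overlap, with all Mfrp rd6 arrays below all wild-type arrays, as was the case for 9.82% of all genes (5.52% had every Mfrp rd6 array above). Its change was -0.22 (SE 0.08, 95% interval -0.39 to -0.05, limma adjusted p = 0.205). Its neighbours on chromosome 16, Dtx3l and Parp9, which form a ubiquitin ligase complex, had changes of -0.11 and -0.10. The annotated spans of Dtx3l and Parp9 overlap in RefSeq. Trim25, the ubiquitin ligase that activates the sensor encoded by Ddx58, averaged 9.88 ± 0.08 in Mfrp rd6 and 10.00 ± 0.05 in wild type (-0.13). Usp18, which removes ISG15 from proteins and damps the type I receptor, averaged 8.50 ± 0.09 in Mfrp rd6 and 8.38 ± 0.34 in wild type, where replicate 4 read 8.84 and the other wild-type samples 8.09 to 8.44.

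The cytosolic RNA sensors showed no call. Ddx58, which senses short viral RNA with a triphosphate end, read 9.53, 9.39 and 9.53 in Mfrp rd6, against 9.58, 9.64, 9.50 and 9.77 in wild type. The groups overlapped, and the change was -0.14 (95% interval -0.32 to 0.05). Ifih1, which senses long double-stranded RNA, read 9.05, 8.78 and 9.14 in Mfrp rd6, against 9.02, 9.24, 9.13 and 9.28 in wild type. Mfrp rd6 replicate 2 was the lowest of all arrays, and the change was -0.18 (95% interval -0.41 to 0.05). Dhx58, a regulator of the other two, had a change of 0.14.

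Among the 17 measured antiviral effectors and enzymes 0 rose and 0 fell, their median change was 0.16, and 13 changes were positive. In limma, 3 had an unadjusted p under 0.05. Rsad2 and Cmpk2 were higher (11.8% of the list, against 5.98% of all genes) and Oasl1 lower (5.88%, against 9.37%). Rsad2, which makes a chain-terminating nucleotide analogue, had the largest positive value of the members. It read 5.17, 6.32 and 6.34 in Mfrp rd6, against 5.24, 5.17, 5.09 and 5.56 in wild type. Mfrp rd6 replicates 2 and 3 lay above every wild-type sample, while replicate 1 lay within the wild-type range. The change was 0.68 (SE 0.26, 95% interval 0.10 to 1.25, limma adjusted p = 0.241). Mfrp rd6 replicate 1, the sample whose age the growth protocol sets apart, held the lowest Mfrp rd6 value, so leaving it out raises the change. Without it the change was 1.06 (limma adjusted p = 0.00637), and Rsad2 then passed together with Irf8. Rsad2 passed in 1 of the 14 alternatives that tested it, and its exact permutation p with all arrays was 0.2. The part of age was not tested.

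Cmpk2, a mitochondrial nucleotide kinase, is the neighbour of Rsad2 on chromosome 12. It read 6.12, 6.44 and 6.51 in Mfrp rd6, against 5.93, 5.76, 6.04 and 6.26 in wild type. The groups overlapped only through Mfrp rd6 replicate 1 and wild-type replicate 4, and the change was 0.36 (95% interval 0.07 to 0.65, limma adjusted p = 0.222). Gbp3, a guanylate-binding protein, read 7.93, 7.72 and 8.14 in Mfrp rd6, against 7.31, 7.65, 7.63 and 7.94 in wild type (change 0.30, 95% interval -0.03 to 0.62). Rtp4, a chaperone of receptors that is strongly induced by type I interferon, read 7.13, 7.23 and 7.77 in Mfrp rd6, against 6.77, 6.93, 7.12 and 7.52 in wild type (change 0.29, 95% interval -0.14 to 0.72), and its change was 0.095 without Mfrp rd6 replicate 3 and 0.44 without wild-type replicate 4. In both genes wild-type replicate 4 overlapped the Mfrp rd6 arrays, and Mfrp rd6 replicate 3 was the highest of all.

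Of the 5 measured genes of the oligoadenylate synthetase family 4 had a negative change and 0 passed. Enzymes of this family make the messenger that switches on RNase L, although Oasl1 acts in another way. Oasl1 had the most negative value of the members: it read 9.28, 8.80 and 9.48 in Mfrp rd6, against 9.69, 9.66, 9.51 and 9.42 in wild type. The groups overlapped only through Mfrp rd6 replicate 3 and wild-type replicate 4, and the change was -0.38 (SE 0.15, 95% interval -0.71 to -0.05, limma adjusted p = 0.244). Without Mfrp rd6 replicate 2 the change was -0.19, and Parp14 (-0.21) was then lower. Its neighbour Oasl2 read 10.85, 10.82 and 11.14 in Mfrp rd6 and 10.96 to 11.07 in wild type (-0.09). Oas3 read 6.56, 6.45 and 6.81 in Mfrp rd6, against 6.77, 6.62, 6.89 and 6.67 in wild type (-0.13, 95% interval -0.36 to 0.10). Oas1a, a member of a group of near-identical genes, had a change of -0.13, and Oas2 one of 0.05 with Mfrp rd6 replicate 3 at 7.29 and the other two at 6.32 and 6.30.

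The Ifit genes, which encode proteins that hold back viral mRNA, lie side by side on chromosome 19 and have close copies, so their probe sets may share signal. Their changes were 0.17 (Ifit1), 0.07 (Ifit2) and 0.10 (Ifit3). Ifit1 read 7.98, 8.44 and 8.75 in Mfrp rd6, against 8.26, 7.83, 7.94 and 8.85 in wild type, so that the highest array of all was wild-type replicate 4. Ifit3 likewise read 10.40, 10.37 and 10.51 in Mfrp rd6, against 10.32, 10.15, 10.10 and 10.74 in wild type.

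The remaining effectors did not pass. Mx1 and Mx2, genes of the Mx GTPase family, had changes of 0.20 and 0.28 on dim probe sets (Mx2 averaged 4.74 ± 0.22 in Mfrp rd6 and 4.45 ± 0.23 in wild type). Bst2, which tethers budding virions, averaged 8.22 ± 0.11 in Mfrp rd6 and 8.05 ± 0.09 in wild type (0.17, 95% interval -0.01 to 0.35). Xaf1, a promoter of apoptosis, had a change of 0.16 and Ifi35, a leucine zipper protein, 0.06. The immunoproteasome subunits Psmb8 and Psmb9, neighbours on chromosome 17 that reshape peptides for MHC class I, had changes of -0.08 and -0.02, with 95% intervals of -0.30 to 0.15 and -0.27 to 0.22.

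**Figure D2:**
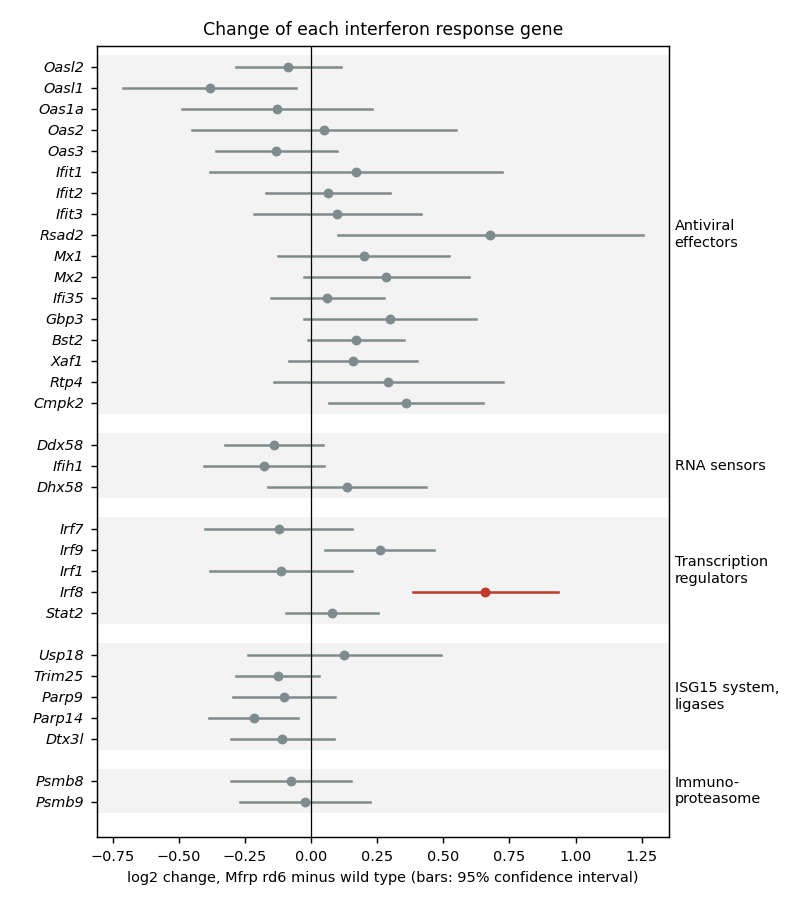
Points give the log2 change (Mfrp rd6 minus wild type) of each interferon response gene and bars its 95% confidence interval, with red for the gene that passed the test. Irf8 is the red gene at 0.66. Of the grey genes, the intervals of Rsad2, Cmpk2 and Irf9 lie above 0 and those of Oasl1 and Parp14 below 0, before adjustment for the number of genes tested.

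Many of the 32 interferon response genes varied together between arrays of the same genotype. Mfrp rd6 replicate 3 was the highest of the 3 Mfrp rd6 arrays for 26 of the 32 genes (81.2%, against 38.2% of all genes) and lay above its group mean for 29. Its median deviation from the group mean was 0.17, against -0.07 for replicate 1 and -0.10 for replicate 2, and over all genes the 3 medians lay between -0.01 and 0.01. In wild type, replicate 4 was the highest array for 16 of the 32 (50%, against 12.5% of all genes), with a median deviation of 0.12, against -0.05, -0.02 and -0.02 for replicates 1, 2 and 3. Among 64 further interferon targets outside the list, Mfrp rd6 replicate 3 was highest in its group for 36 (median deviation 0.08). Wild-type replicate 4 was highest for 20 of the 64, with a median deviation of 0.0175, against 0.0225 for replicate 2. Among 18 interferon receptors, kinases and regulators of STAT signalling, Mfrp rd6 replicate 3 was lowest for 9 and wild-type replicate 4 highest for 0. These shares are descriptions across genes, which are not independent replicates.

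The genes that set wild-type replicate 4 apart were not all of the list. It was the highest wild-type array for 9 of the 17 antiviral effectors for all 3 RNA sensors and for 3 of the 5 transcription regulators, but for 1 of the 5 genes of the ISG15 system and its ligases and for 0 of the 2 immunoproteasome genes, where replicate 2 was the highest for 4 and 2. Its largest deviations were those of Ifit1 (0.63), Usp18 (0.46), Rtp4 (0.44) and Ifit3 (0.41). Mfrp rd6 replicate 3 was the highest of its group for 14 of the 17 effectors, 2 of the 3 sensors, 3 of the 5 transcription regulators and all genes of the other groups, with its largest deviations in Oas2 (0.65), Rsad2 (0.40), Rtp4 (0.39), Ifit1 (0.36), Irf7 (0.35) and Irf1 (0.32). The 3 members that lay below their group mean on this array were Oas1a, Irf8 and Stat2.

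This variation ran against the microglia and macrophage markers within the mutants. Mfrp rd6 replicate 3 was the lowest Mfrp rd6 array for 15 of the 20 markers, with a median deviation of -0.27, and replicate 2 the highest for 19, with 0.35. Skeletal muscle markers were lowest on Mfrp rd6 replicate 3 for 10 of 10. Endothelial markers were highest on Mfrp rd6 replicate 3 for 8 of 9 (median deviation 0.24). In wild type, 5 of the 9 were highest on replicate 4 (0.14) and 4 on replicate 3, where the median deviation was larger (0.19) and that of the interferon genes was -0.02. B cell markers, on dim probe sets, were highest on Mfrp rd6 replicate 3 for 5 of 5 (0.17) but on wild-type replicate 4 for 0 of 5 (-0.08). Rod markers were highest on Mfrp rd6 replicate 3 for 5 of 7 (0.18), while wild-type replicate 4 was the lowest for 6 of 7 (-0.65) and wild-type replicate 3 the highest for 7 of 7 (0.65). The interferon ligands, most but not all on dim probe sets, were also highest on Mfrp rd6 replicate 3 for 11 of 16. In wild type they were highest on replicate 1 for 10 of 16. The part of these cells and of dim signal in the variation was not tested. Leaving out Mfrp rd6 replicate 3 gave a median change of the 32 genes of -0.0025, leaving out Mfrp rd6 replicate 2 one of 0.11, and leaving out wild-type replicate 4 one of 0.10, against 0.06 with all arrays.

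**Figure D3:**
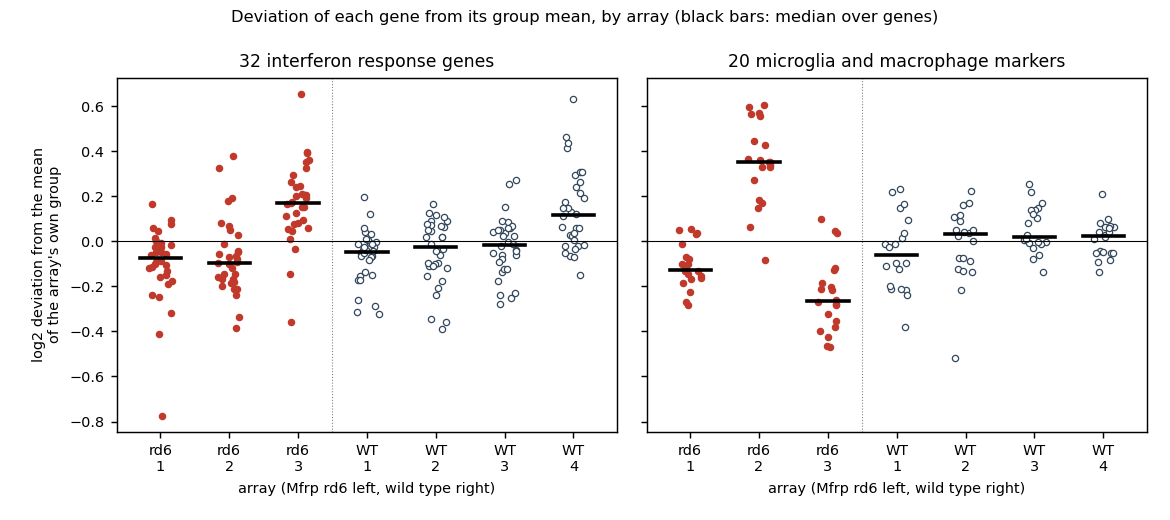
Each point is a gene, plotted as its log2 deviation from the mean of the array's own group, for the 32 interferon response genes on the left and 20 microglia and macrophage markers on the right. Black bars are medians over the genes: the interferon genes are highest on Mfrp rd6 replicate 3 (0.17) and wild-type replicate 4 (0.12), the markers on Mfrp rd6 replicate 2 (0.35).

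Further genes of the pathway outside the 35 were read from lists set for this work. Of the 16 measured interferon ligands 0 rose and 0 fell, and their changes lay between -0.32 and 0.17. The count was also 0 at an unadjusted p under 0.05 in limma, against 15.4% of all genes in either direction. The ligand genes hold near-identical copies and several share probe sets, so single members are uncertain. The brightest probe set was that of Ifnl2, at 7.89 ± 0.21 in Mfrp rd6 and 7.91 ± 0.22 in wild type. Of the 18 receptors, kinases and regulators of STAT signalling 0 rose and 0 fell, with a median change of -0.04. In limma, 4 had an unadjusted p under 0.05. Of these, 1 was higher (5.56% of the list, against 5.98% of all genes) and 3 lower (16.7%, against 9.37%). The brightest, Ifngr2, a chain of the interferon gamma receptor, averaged 11.36 ± 0.09 in Mfrp rd6 and 11.49 ± 0.10 in wild type (-0.13, 95% interval -0.31 to 0.05).

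Of 16 genes of the induction of interferon by nucleic acids 1 rose (6.25%, against 1.34% of all genes) and 0 fell. In limma, 3 were higher at an unadjusted p under 0.05 (18.75%, against 5.98% of all genes) and 0 lower (9.37% of all genes). Tlr7, the endosomal receptor for single-stranded RNA, read 6.38, 7.07 and 5.79 in Mfrp rd6, against 4.59, 4.19, 4.40 and 4.71 in wild type. The groups were separate, and the change was 1.94 (SE 0.25, 95% interval 1.38 to 2.50, limma adjusted p = 0.00442), or 3.84-fold. It passed in the 14 alternatives that tested it. The median change of this list was 0.02. The order within Mfrp rd6, with replicate 2 highest and replicate 3 lowest, was that of the microglia and macrophage markers, whose part was not tested.

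Of 64 further interferon targets 2 rose (3.12%, against 1.34% of all genes) and 0 fell, and the median change was 0.04. At an unadjusted p under 0.05, 11 were higher (17.2%, against 5.98% of all genes) and 4 lower (6.25%, against 9.37%). Lgals9, a galectin that interferon gamma induces, read 9.02, 9.41 and 9.05 in Mfrp rd6, against 7.84, 8.36, 8.04 and 8.40 in wild type. All Mfrp rd6 arrays were above all wild-type arrays, with a change of 1.00 (SE 0.15, 95% interval 0.66 to 1.34, limma adjusted p = 0.0102). Lgals3bp, a secreted ligand of galectins, read 12.13, 12.12 and 12.00 in Mfrp rd6, against 11.36, 11.69, 11.63 and 11.76 in wild type (change 0.47, SE 0.10, limma adjusted p = 0.0447). The call of Lgals3bp was lost when any single array was left out (0.39 to 0.52, adjusted p of 0.0507 to 0.152). On the same arrays 16 of 20 microglia and macrophage markers rose, and their part was not tested.

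**Figure D4:**
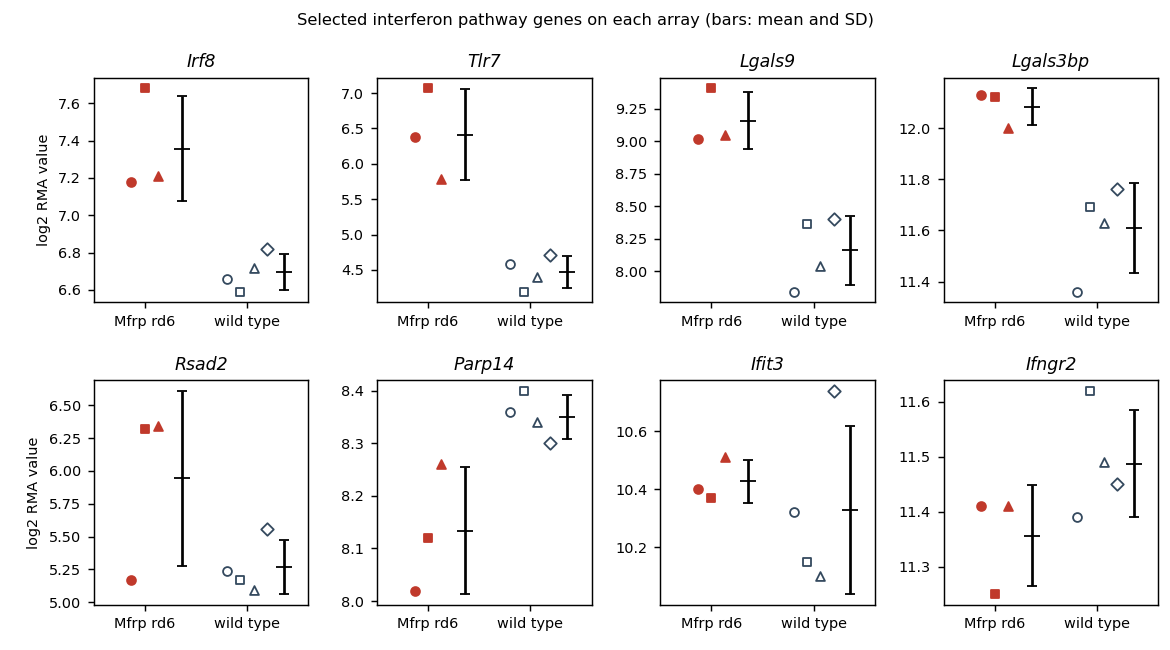
Points are the log2 RMA values of 8 interferon pathway genes on each array (red filled, Mfrp rd6; open, wild type; circle, square, triangle and diamond for replicates 1, 2, 3 and 4), each panel on its own scale that does not start at 0, with the mean and SD of each group beside them. The groups are separate for Irf8, Tlr7, Lgals9, Lgals3bp and Parp14 and overlap for Rsad2, Ifit3 and Ifngr2.

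The arrays were alike in scale, with medians of 6.52 to 6.58. The single probe set of Mfrp also measures C1qtnf5 and was not used, so the genotype labels were not checked against its level. The RPE markers were bright (list means of 11.15 to 11.21 in Mfrp rd6 and 11.18 to 11.28 in wild type), except Best1 at 5.73 to 5.95 in Mfrp rd6 and 5.75 to 6.02 in wild type, and 1 of 10 fell, Lrat (-0.40). Besides microglia and macrophages, whose largest rises were Ly86 (3.41) and Tyrobp (3.18), some marker lists of other cells held calls. Higher were Cox6a2 (1.16) among 6 of plasmacytoid dendritic cells, Cd3e (0.43) among 10 of T and NK cells, Plvap (0.57) and Tek (0.55) among 9 of endothelium, and Pvalb (2.18) and Myh4 (1.84) among 10 of skeletal muscle, which also expresses Cox6a2. Ltf (-0.78) was lower among 7 of neutrophils. The lists of B cells (5 measured, brightest Cd79b at 0.06), rods (7, Gnat1 at -0.67) and surface epithelium (7, Krt5 at 0.01) held 0 calls in the limma fit, with 0, 3 and 3 at an unadjusted p under 0.05. Those 3 rod and 3 surface epithelium markers were all lower (42.9% of each list, against 9.37% of all genes). All 7 rod markers had a negative change (median -0.57), as had 5 of the 7 surface epithelium markers (median -0.14). Ly86 and Tyrobp passed in all 16 alternatives, while each of the other marker calls named here held in 7 to 10 of the 15 or 16 alternatives that tested it, with adjusted p of up to 0.195 in limma. The endothelial means were 7.30 to 7.68 in Mfrp rd6 and 6.74 to 7.18 in wild type. In limma, 8 of the 9 endothelial and all 10 skeletal muscle markers were higher at an unadjusted p under 0.05 (5.98% of all genes). The same held for 4 of the 10 T and NK cell markers and 2 of the 6 of plasmacytoid dendritic cells. The surface epithelium markers, of cells outside the RPE, were also bright, with list means of 11.36 to 11.47 in Mfrp rd6 and 11.55 to 11.71 in wild type, and Krt5, Krt14, Krt15, Krt6a and Dsp lay at or above the 99.2 percentile of all genes. The part of these cells in the values above was not tested.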

How the data were processed

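Total RNA of the RPE was labelled and hybridised to Affymetrix whole-transcript arrays. The deposited values are log2 signals per probe set, which the authors made with RMA in Affymetrix Expression Console, per the submitters' processing notes (no version is given there). RMA subtracts background, sets the arrays to 1 distribution and summarises probes, so weak signals are compressed. Groups came from the genotype label (3 Mfrp rd6, 4 wild type). Of 35556 probe sets, 21789 had 1 symbol, 1621 several and 12146 none in the platform annotation, which is old. Each gene was read from its brightest probe set with 1 symbol, which gave 19938 genes; 999 genes had several probe sets. Of the 35 listed genes 32 were measured, and all 32 matched RefSeq symbols.

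Groups were compared with limma 3.58.1 in R 4.3.3 (lmFit and eBayes, no covariates, Benjamini-Hochberg adjustment over all genes, threshold 0.05), and single genes also with an exact two-sided permutation test over 35 splits. The procedure was tested on simulated data. The number of arrays limits the precision. Files were read with Python 3.11.15 and pandas 2.3.3.

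All 35 listed genes were named. Values on every array were given for genes past the threshold and for the 5 largest positive and 5 largest negative changes; a few further array values (Ifit1, Ifit3, Oas2, Oasl2, Irf7, Irf1, Usp18) were chosen after they were seen. From each other list the 2 largest calls or, with 0 calls, the brightest gene were named, and Best1, Krt14, Krt15, Krt6a and Dsp were chosen after their values were seen. Promoters were printed for up to 4 of the genes given on every array that held a core, by size of change. The members and lists were chosen with earlier results of these data known. The 16 alternatives changed the normalization, the filter on dim genes, the variance model, the array weights, the probe sets, the replicate block and the arrays included.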

Additional observations from a re-analysis of the deposited data

How the results depend on the processing

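The 32 interferon response genes were refitted under 16 alternatives. Of 499 fits of single members, 474 kept the sign and the side of the threshold, 5 lost the call (all Irf8), 1 gained it (Rsad2) and 19, in 11 members, turned the sign of a change that had not passed. The count of members that rose was 0 among genes above the median level, where Irf8 was not tested, 0 with a replicate block (Irf8 0.70, limma adjusted p = 0.0539), 0 with wild-type replicate 3 left out along with Mfrp rd6 replicate 2 (Irf8 0.50, limma adjusted p = 0.0821) and 0 to 2 when 1 array was left out. It was 0 for falls in every alternative. Their median change was -0.0492 among genes above the median level, -0.0752 with array weights, which weight wild-type replicate 4 most (2.79), and -0.0025 to 0.11 when 1 array was left out.

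Over all genes the counts were 267 rises and 162 falls. They were 302 falls among genes above the median level, 355 falls with a variance trend and robust moderation, 405 rises and 274 falls with array weights, 166 rises and 59 falls with the replicate block, 155 rises and 38 falls with both arrays left out together, and 152 to 235 rises and 59 to 108 falls when 1 array was left out. Deviations of same-numbered arrays from their group means correlated at -0.30, -0.07 and 0.04. These values cannot settle whether the numbers pair the samples, because deviations from the mean of a small group depend on each other.

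In the other lists, 1 receptor or kinase fell among genes above the median level. The induction list held 0 rises under both filters on dim genes, which left out Tlr7. Of the further targets 1 fell with the variance trend and robust moderation, 1 with array weights and 1 without Mfrp rd6 replicate 3, while 1 rose whenever 1 array was left out and 0 with both left out, where Lgals9 changed by 0.84 (limma adjusted p = 0.0881).

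Sign changes were these. With array weights: Oas2 -0.0759, Ifit1 -0.12, Ifit3 -0.0805, Dhx58 -0.0002 and Usp18 -0.0702. With both arrays left out: Ifit2 -0.07, Psmb8 0.03, Psmb9 0.0867 and Krt5 -0.005. With probe sets averaged per gene: Irf1 0.0133. With quantile normalization: Ifnl2 0.0074 and Krt5 -0.0276. When 1 array was left out, the changes ran from -0.2433 to 0.05 for Oas1a, from -0.2775 to 0.2175 for Oas2, from -0.01 to 0.38 for Ifit1, from -0.025 to 0.16 for Ifit2, from -0.0225 to 0.1325 for Ifi35, from -0.1625 to 0.0075 for Psmb8, from -0.1425 to 0.0675 for Psmb9, from -0.12 to 0.1025 for Ifnl2 and from -0.0033 to 0.02 for Krt5. The cause of these shifts was not tested. Signal over background was not available, so dim probe sets are known only by their level.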
